A study of Mus musculus with 50 samples.

Results

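Flna, Lamp2, G6pdx, Usp11, Usp9x, Clcn5, Xiap, Sat1 and Atp6ap2 are 9 genes of the mouse X chromosome, taken from the 24391 genes, 1063 of them X-linked, of 3 RNA count tables. They were chosen by name as X-linked genes with many reads that could be given to one parental chromosome and with a higher share of 129 reads in Repeat B mutant embryonic stem (ES) cells than in wild type. The 129 shares that chose them are therefore a description. So is every other comparison of these 9 genes between mutant and wild-type ES cells below, which uses the same libraries. Only genes outside the 9 were tested between mutant and wild type. All 9 genes passed the filters on low counts. For reads assigned to a parental chromosome, Sat1 passed at a mean of 20.5 per ES library against a minimum of 20. Its wild-type libraries held 16 and 3 such reads, so its pass rests on the mutant libraries.

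RNA-seq libraries came from ES cells differentiated in culture and from mouse embryonic fibroblasts (MEF), all of mixed CAST/Ei and 129/Sv/Jae background, and a read covering a variant between the strains was given to its 129 or its CAST allele. The ES cells were RepB-/-, with Repeat B of Xist deleted on both alleles, RepB+/-, with the repeat deleted on one allele, or wild type, with 2 libraries per genotype. All ES cells had been taken off feeders, kept for 4 days as embryoid bodies and plated for 10 days. The labels do not say which allele of RepB+/- cells lost the repeat. The MEF were 1 RepB library, for which the labels name no zygosity, and 1 wild-type library. No label says that libraries of a genotype came from separate clones or cultures, so the p-values rest on a spread among libraries that may be technical. The series' other 42 samples were not analysed here.

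In female mammals one X chromosome is silenced early in development, when the long non-coding RNA Xist coats the chromosome from which it is transcribed. Repeat B is a short C-rich tandem repeat of Xist through which Polycomb complexes are brought to the silent X. Housekeeping genes make products that most cells use, and those on the X are ordinarily read from the active copy alone unless they escape silencing.

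Totals lay between 8000722 and 28045645 counts per ES library, and were 18631736 in RepB MEF and 12126941 in wild-type MEF. Between 26.7% and 28.0% of counts were allelic. RepB+/- replicate 2 was the shallowest library, and its values have the widest intervals. The count of Xist, which covers the gene as a whole and cannot show that its repeat is gone, was 833 and 1149 CPM (counts scaled to a common library size) in RepB-/- cells, 918 and 813 CPM in RepB+/- cells, and 904 and 902 CPM in wild type. Its 129 share was 89.2% and 87.2% in RepB-/-, 97.8% and 97.2% in RepB+/-, and 98.9% and 98.6% in wild type, so that nearly all Xist reads of wild-type cells carried 129 variants.

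The description as deeply read held for 8 of the 9 genes. Flna averaged 12413 allelic reads per ES library, the highest of 1062 X-linked genes, and Atp6ap2, the lowest of the 8, averaged 202, against a median of 129.9 for X-linked genes with at least 20. In all, 138 X-linked genes reached the level of Atp6ap2, so the 9 are a selection among such genes. Sat1 averaged 20.5 allelic reads, between 3 and 42 per library, because only 2.41% of its reads were allelic against a median of 21.9% on the X. Its allelic values are given, but their intervals span most of the scale. Flna alone gave 67.5% of the 110333 allelic reads of the set in ES cells. Each gene was detected in all 8 libraries, at 10.1 CPM or more. Detection alone does not bear out the housekeeping label, which was not tested, and levels differed between cell types as given below.

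The genes lie across 144.9 Mb of the X chromosome by the mm9 exon that the tables list for each. Clcn5, which encodes an endosomal chloride/proton exchanger, is listed at chrX:6735538-6736945. Atp6ap2, the accessory subunit of the vacuolar proton pump also known as the prorenin receptor, is listed at chrX:12164885-12165061, and Usp9x, a deubiquitinase, lies 484 kb away at chrX:12648624-12648859. Usp11, another deubiquitinase, is listed at chrX:20281035-20281245. Lamp2, a protein of the lysosomal membrane, is at chrX:35754534-35755458, and Xiap, an inhibitor of caspases, at chrX:39421013-39421233. Flna, the actin crosslinker filamin A, at chrX:71468800-71469316, and G6pdx, the glucose-6-phosphate dehydrogenase that opens the pentose phosphate pathway, at chrX:71654825-71655636, are only 186 kb apart. Sat1, the spermidine/spermine acetyltransferase of polyamine breakdown, is at chrX:151647669-151648210. Flna and G6pdx, though neighbours, had mean CAST changes of opposite sign in both mutants, as described below.

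The promoters of 8 genes were found in RefSeq (GRCm38.p6, a later build than the mm9 of the counts), with 11 start sites among them. Usp9x was not matched. In the 250 bases before each start, 7 motifs were searched on both strands. GGGCGG, the core of the GC box, was in 8 of the 11 windows and in 7 of the 8 genes, against 32.7% of 32851 mouse promoter windows of that length. CCAAT was in 3 windows (33.8% of all promoters), TATAAA in 2 (12.4%) and CCGGAAG, an ETS-type motif, in 2 (6.91%). The E-box CACGTG (6.02%) and the longer motifs of YY1 (0.301%) and NRF1 (0.782%) were in none of the 11. The windows held 1 to 20 CG dinucleotides, with a median of 11 against 6 over all promoters. The sequences below stand for the different allelic patterns described next. Flna and Usp11 had lower mean CAST reads in both mutants, and G6pdx and Atp6ap2 had higher mean CAST reads. In RepB+/- the CAST reads of Flna and of Atp6ap2 overlapped wild type. Capitals mark the GC box core, the CCAAT box and the ETS-type motif on either strand. In Atp6ap2 one CCAAT overlaps the GC box core before it.
Flna, chrX:74246535-74246784, minus strand: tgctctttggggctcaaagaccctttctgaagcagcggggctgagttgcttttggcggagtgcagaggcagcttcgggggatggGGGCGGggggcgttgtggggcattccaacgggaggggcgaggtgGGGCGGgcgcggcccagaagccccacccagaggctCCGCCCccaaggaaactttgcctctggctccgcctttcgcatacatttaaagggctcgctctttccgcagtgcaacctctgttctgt
Usp11, chrX:20703659-20703908, plus strand: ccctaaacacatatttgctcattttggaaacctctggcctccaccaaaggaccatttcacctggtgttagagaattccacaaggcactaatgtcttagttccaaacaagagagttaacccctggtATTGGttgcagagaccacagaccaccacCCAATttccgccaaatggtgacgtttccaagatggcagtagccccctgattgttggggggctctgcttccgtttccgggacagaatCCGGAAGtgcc
G6pdx, chrX:74428881-74429130, minus strand: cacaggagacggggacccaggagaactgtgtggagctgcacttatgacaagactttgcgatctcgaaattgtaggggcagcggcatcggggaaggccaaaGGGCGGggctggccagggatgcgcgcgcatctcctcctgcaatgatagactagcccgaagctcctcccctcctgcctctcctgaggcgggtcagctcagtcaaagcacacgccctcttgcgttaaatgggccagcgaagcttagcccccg
Atp6ap2, chrX:12587509-12587758, plus strand: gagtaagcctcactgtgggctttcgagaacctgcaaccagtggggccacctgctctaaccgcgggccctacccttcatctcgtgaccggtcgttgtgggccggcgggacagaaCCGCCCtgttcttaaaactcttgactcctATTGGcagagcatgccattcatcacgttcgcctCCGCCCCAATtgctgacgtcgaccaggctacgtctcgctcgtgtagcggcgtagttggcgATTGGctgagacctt
Flna held 3 GGGCGG motifs and no CCAAT, Usp11 2 CCAAT and no GGGCGG, G6pdx 1 GGGCGG, and Atp6ap2 2 GGGCGG and 3 CCAAT. A motif match is a description of letters and not of binding, and with 8 genes no link between motifs and allelic pattern was tested.

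In both mutants, 129 reads made up a large part of the allelic reads of these genes, from a minor part in wild type. The median 129 share over the 9 genes was 44.0% and 43.8% in RepB-/- libraries, 42.0% and 40.8% in RepB+/- libraries, and 8.61% and 5.57% in wild-type libraries. That is 36.8 points above wild type in RepB-/- and 34.3 points in RepB+/-, beside 28.9 and 27.4 points for the median of 376 X-linked genes and -0.38 and -0.034 points for 418 genes of chromosome 13, an autosome with reads of both alleles. In both mutant libraries the share exceeded that of either wild-type library for 9 of 9 genes in RepB-/- (90.2% of the X-linked genes did so, and 14.8% of those on chromosome 13) and for 8 of 9 in RepB+/- (83.0% and 14.1%). Sat1 was the exception in RepB+/-. The rule fixed this direction, and both mutants are set against the same wild-type libraries.

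**Figure D1:**
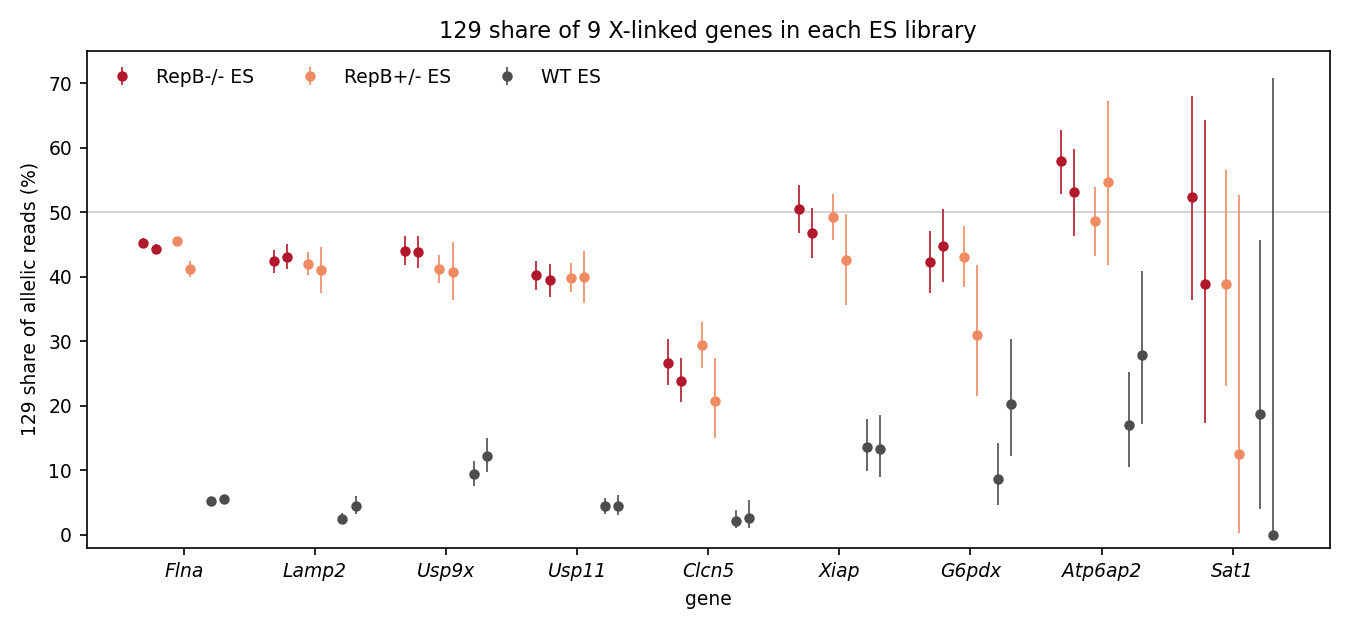
Share of 129 among allelic reads (y axis, percent) for each gene (x axis) in the 2 libraries of RepB-/-, RepB+/- and wild-type ES cells, with exact Clopper-Pearson 95% intervals for counting error. Flna is at 45.2% and 44.3% in RepB-/- and at 5.25% and 5.57% in wild type, Clcn5 stays near 25% in both mutants, and the intervals of Sat1 are wide.

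Flna had 45.2% and 44.3% of its allelic reads from 129 in RepB-/-, 45.5% and 41.2% in RepB+/-, and 5.25% and 5.57% in wild type. Lamp2 had 42.4% and 43.1% in RepB-/-, 42.0% and 41.0% in RepB+/-, and 2.51% and 4.51% in wild type. Usp11 had 40.2% and 39.4% in RepB-/-, 39.9% and 39.9% in RepB+/-, and 4.40% and 4.46% in wild type. These 3 genes had nearly silent 129 alleles in wild type and shares near 40% or above in all mutant libraries. Usp9x had 44.0% and 43.8% in RepB-/-, 41.1% and 40.8% in RepB+/-, and 9.39% and 12.2% in wild type. Xiap had 50.5% and 46.7% in RepB-/-, 49.2% and 42.6% in RepB+/-, and 13.6% and 13.3% in wild type. Xiap came near equal reads of both alleles, its 129 reads being 94.9% of its CAST reads in RepB-/- and 91.7% in RepB+/-.

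Clcn5 stayed furthest below equality, with 26.6% and 23.8% of allelic reads from 129 in RepB-/-, 29.4% and 20.7% in RepB+/-, and 2.20% and 2.63% in wild type. Its 129 reads were 33.8% of its CAST reads in RepB-/- and 38.0% in RepB+/-, counted over both libraries. Atp6ap2 had the highest mean 129 share in every genotype, at 57.9% and 53.1% in RepB-/-, 48.6% and 54.7% in RepB+/-, and 17.0% and 27.9% in wild type. G6pdx had 42.3% and 44.7% in RepB-/-, 43.1% and 31.0% in RepB+/-, and 8.61% and 20.2% in wild type. Both Atp6ap2 and G6pdx thus had a sizeable 129 share in wild type, and their wild-type replicates differed more than those of the other deeply read genes. Sat1 had 22 of 42 and 7 of 18 allelic reads from 129 in RepB-/-, 14 of 36 and 1 of 8 in RepB+/-, and 3 of 16 and 0 of 3 in wild type. At these depths no genotype of Sat1 was separated from another by its counting intervals.

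The share alone does not say whether 129 reads were added or CAST reads were fewer, so each allele was scaled by the effective size of its whole library (TMM). Changes are log2 differences of CPM + 0.05 from the mean of the wild-type libraries, with the SD of the 2 mutant libraries. Over the 9 genes, the median change of 129 reads was 2.62 ± 0.26 in RepB-/- and 2.43 ± 0.27 in RepB+/- (SD, n = 2 each), beside 2.52 and 2.44 for X-linked genes. That of CAST reads was -0.20 ± 0.069 in RepB-/-, beside -0.13 on the X and 0.07 on chromosome 13, and -0.19 ± 0.044 in RepB+/-, beside -0.16 and 0.02. With plain library sizes it was -0.13 in each mutant, and in RepB+/- it was -0.073 when wild-type replicate 2 was left out and -0.099 when RepB+/- replicate 2 was. That of all reads was 0.57 ± 0.16 in RepB-/-, beside 0.33 on the X and 0.04 on chromosome 13, and 0.53 ± 0.011 in RepB+/-, beside 0.30 and 0.01. All reads were higher in both mutant libraries than in both wild-type libraries for 8 of 9 genes in each mutant, the exception being Clcn5, where 32.4% of all 15149 genes tested and 63.3% of the 376 X-linked genes did so in RepB-/-, and 31.1% and 64.4% in RepB+/-. CAST reads were lower in both mutant libraries for 5 of 9 genes in RepB-/- (39.4% of X-linked and 19.6% of chromosome 13 genes) and for 4 of 9 in RepB+/- (35.4% and 21.1%). They were higher for 2 of 9 in each (18.1% of X-linked genes in each). Since the rule used this contrast, nothing is read from these counts.

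**Figure D2:**
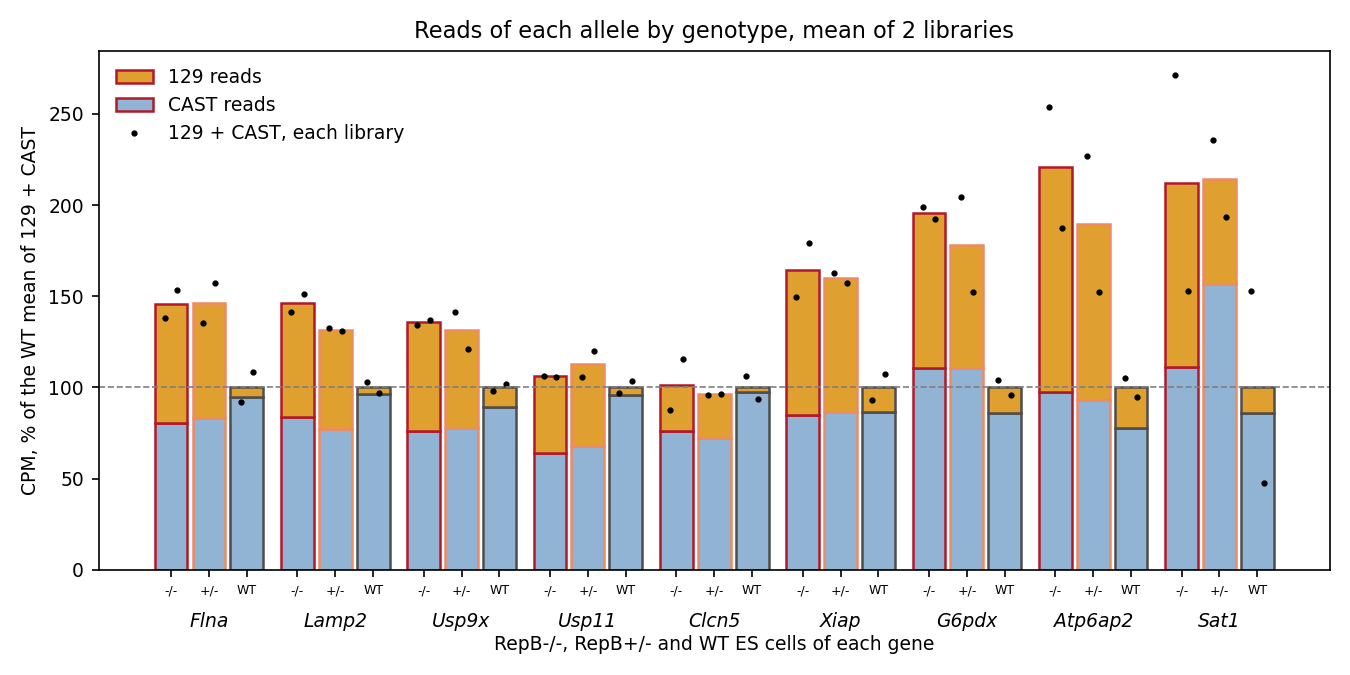
Mean 129 and CAST reads per gene and genotype (stacked bars, mean of 2 libraries, y axis in percent of the wild-type mean of 129 + CAST CPM), with a dot for each library's sum and bar outlines coloured by genotype. The bars of RepB-/- and RepB+/- stand above the dashed wild-type level for most genes, while those of Clcn5 end near it and the CAST part of Usp11 is visibly shorter than in wild type.

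Flna, Lamp2 and Usp9x showed a large gain of 129 reads beside a smaller deficit of CAST reads. Flna had 301 and 327 CPM from 129 in RepB-/-, 296 and 313 CPM in RepB+/-, and 23.2 and 29.1 CPM in wild type. Its CAST reads were 364 and 411 CPM in RepB-/-, 355 and 446 CPM in RepB+/-, and 419 and 493 CPM in wild type, so that both RepB-/- libraries lay below wild type and the RepB+/- libraries overlapped it. The 129 gain of Flna equalled 63.1% of the wild-type CAST level in RepB-/- and 61.0% in RepB+/-, with a CAST change of -15.0% in RepB-/- and -12.1% in RepB+/-. All reads of Flna came to 2663 and 2874 CPM in RepB-/-, 2567 and 2985 CPM in RepB+/-, and 1770 and 2076 CPM in wild type, 1.44-fold higher in each mutant. In a sum of alleles rather than all reads the fold was 1.46 in each.

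Lamp2 had 46.4 and 50.3 CPM from 129 in RepB-/-, 43.1 and 41.4 CPM in RepB+/-, and 2.00 and 3.39 CPM in wild type. Its CAST reads were 63.1 and 66.4 CPM in RepB-/-, 59.4 and 59.6 CPM in RepB+/-, and 77.6 and 71.7 CPM in wild type, with no overlap. All reads of Lamp2 were 387 and 413 CPM in RepB-/-, 351 and 356 CPM in RepB+/-, and 266 and 245 CPM in wild type, 1.57-fold higher in RepB-/- and 1.38-fold in RepB+/-. For Lamp2 the 129 gain was therefore 61.2% of the wild-type CAST level in RepB-/- and 53.0% in RepB+/-, against a CAST change of -13.3% in RepB-/- and -20.2% in RepB+/-. Usp9x had 30.6 and 31.1 CPM from 129 in RepB-/-, 30.1 and 25.6 CPM in RepB+/-, and 4.77 and 6.44 CPM in wild type. CAST reads of Usp9x were 38.9 and 39.9 CPM in RepB-/-, 43.1 and 37.1 CPM in RepB+/-, and 46.0 and 46.3 CPM in wild type. All reads of Usp9x were 368 and 411 CPM in RepB-/-, 393 and 359 CPM in RepB+/-, and 280 and 286 CPM in wild type, 1.37-fold higher in RepB-/- and 1.33-fold in RepB+/-. No mutant library of Usp9x overlapped wild type in any of these 3 measures.

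For Clcn5 the deficit of CAST reads was close to the gain of 129 reads, and for Usp11 it offset most of a gain that was 39.6% of the wild-type CAST level in RepB-/- and 42.5% in RepB+/-. Usp11 had 26.8 and 26.1 CPM from 129 in RepB-/-, 26.4 and 30.0 CPM in RepB+/-, and 2.67 and 2.88 CPM in wild type. Its CAST reads were 39.9 and 40.1 CPM in RepB-/-, 39.9 and 45.2 CPM in RepB+/-, and 57.9 and 61.8 CPM in wild type. The CAST change was -33.2% in RepB-/- and -28.9% in RepB+/-, the largest deficit of the 9 genes, and no library of either mutant overlapped wild type. All reads of Usp11 were 194 and 207 CPM in RepB-/-, 195 and 215 CPM in RepB+/-, and 177 and 176 CPM in wild type, 1.14-fold higher in RepB-/- and 1.16-fold in RepB+/-.

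Clcn5 had 5.62 and 6.63 CPM from 129 in RepB-/-, 6.79 and 4.81 CPM in RepB+/-, and 0.564 and 0.593 CPM in wild type. Its CAST reads were 15.5 and 21.2 CPM in RepB-/-, 16.3 and 18.4 CPM in RepB+/-, and 25.1 and 21.9 CPM in wild type. In RepB-/- a 129 gain of 23.6% of the wild-type CAST level stood against a CAST change of -22.1%, and in RepB+/- a gain of 22.2% against -26.1%. All reads of Clcn5 were 97.6 and 116 CPM in RepB-/-, 102 and 103 CPM in RepB+/-, and 113 and 112 CPM in wild type. Clcn5 was thus the one gene of the set with no more total reads in the mutants, at 0.949-fold in RepB-/-, where the libraries straddled wild type, and 0.910-fold in RepB+/-, where both were lower.

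Xiap gained 129 reads with CAST reads at the wild-type level. It had 12.6 and 13.9 CPM from 129 in RepB-/-, 13.4 and 11.2 CPM in RepB+/-, and 2.10 and 2.37 CPM in wild type. CAST reads of Xiap were 12.4 and 15.9 CPM in RepB-/-, 13.8 and 15.1 CPM in RepB+/-, and 13.4 and 15.5 CPM in wild type, which overlap. All reads were 96.4 and 117 CPM in RepB-/-, 113 and 104 CPM in RepB+/-, and 72.0 and 71.6 CPM in wild type, 1.49-fold higher in RepB-/- and 1.51-fold in RepB+/-.

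In G6pdx, Atp6ap2 and Sat1 the mean of CAST reads was also higher in the mutants, and these genes had the largest differences in all reads among the 9 in RepB-/-. G6pdx had 6.24 and 6.40 CPM from 129 in RepB-/-, 6.54 and 3.51 CPM in RepB+/-, and 0.667 and 1.44 CPM in wild type. Its CAST reads were 8.53 and 7.91 CPM in RepB-/-, 8.65 and 7.79 CPM in RepB+/-, and 7.08 and 5.68 CPM in wild type, 28.9% higher in each mutant and without overlap. All reads of G6pdx were 69.6 and 65.8 CPM in RepB-/-, 66.2 and 53.1 CPM in RepB+/-, and 34.6 and 30.8 CPM in wild type. At 2.07-fold in RepB-/- and 1.82-fold in RepB+/-, G6pdx had the highest all-read ratio of the set in each mutant.

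Atp6ap2 had 8.01 and 5.44 CPM from 129 in RepB-/-, 6.01 and 4.55 CPM in RepB+/-, and 0.975 and 1.44 CPM in wild type. Its CAST reads were 5.83 and 4.80 CPM in RepB-/-, just above wild type, 6.36 and 3.77 CPM in RepB+/-, which overlapped it, and 4.77 and 3.73 CPM in wild type. All reads of Atp6ap2 were 76.4 and 66.9 CPM in RepB-/-, 66.4 and 58.3 CPM in RepB+/-, and 39.2 and 36.1 CPM in wild type, 1.90-fold higher in RepB-/- and 1.66-fold in RepB+/-. In RepB-/- the gain of 129 reads of Atp6ap2, at 129.9% of the wild-type CAST level, exceeded that level. All reads of Sat1 were 54.9 and 47.4 CPM in RepB-/-, 44.3 and 40.3 CPM in RepB+/-, and 30.1 and 27.3 CPM in wild type, 1.78-fold higher in RepB-/- and 1.47-fold in RepB+/-. Sat1 had CAST reads below 1 CPM in every library, so its split between alleles rests on few reads.

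**Figure D3:**
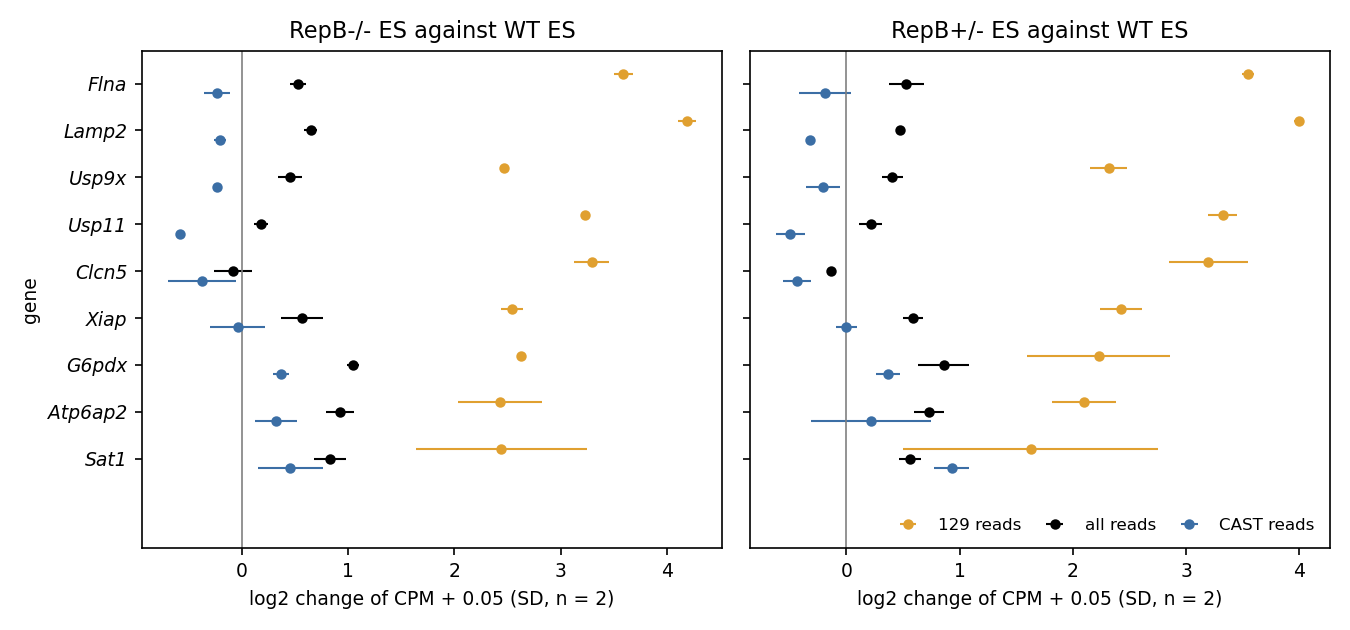
Log2 change (x axis, CPM + 0.05) of 129, all and CAST reads for each gene (y axis), RepB-/- on the left and RepB+/- on the right, each against the mean of wild type; bars are the SD of the 2 mutant libraries. All 129 points lie above 1.6, the all-read points between -0.14 and 1.05, and the CAST points between -0.58 and 0.93.

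Gene by gene on the log2 scale, the all-read change followed the CAST change more closely than the 129 change. A log2 change of 129 reads also depends on how low they were in wild type. As a percentage of the wild-type CAST level, the 129 gain in RepB-/- was smallest for Clcn5 (23.6%) and Usp11 (39.6%), which had the lowest all-read changes. It was largest for G6pdx (82.6%), Sat1 (100.9%, from few reads) and Atp6ap2 (129.9%), which had the highest. Across the 9 genes, Pearson's r of all-read with CAST changes was 0.869 (Spearman's rho 0.90) in RepB-/- and 0.633 (0.867) in RepB+/-, whereas with 129 changes it was -0.377 (-0.40) and -0.463 (-0.55). Across the 131 other X-linked genes averaging at least 200 allelic reads, r with CAST was 0.744 and 0.713, and with 129 0.298 and 0.239. These are correlations across genes, which share the libraries and are not replicates, and allelic reads are part of all reads. In RepB-/-, the 129 log2 change of Lamp2 was the highest of the set at 4.19, with all reads at 0.65, while G6pdx had 2.62 and 1.05. That contrast holds on the log2 scale only. Relative to the wild-type CAST level, the 129 gain of Lamp2 (61.2%) was smaller than that of G6pdx (82.6%).

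The mutants also differed from wild type in markers of other cell states, which are given here beside the all-read levels. Summed over 18 pluripotency genes, libraries had 621 to 929 CPM in RepB-/- and RepB+/- against 326 to 387 CPM in wild type, and 15 of 18 rose in RepB-/-, and 17 rose and 1 fell in RepB+/- (edgeR quasi-likelihood test, Benjamini-Hochberg adjusted p of 0.05). Among all genes tested, 7.27% rose and 5.49% fell in RepB-/-, and 9.12% rose and 6.84% fell in RepB+/-. Of 20 cardiac muscle genes, 15 fell in RepB-/- and 14 in RepB+/-, with sums of 855 to 1133 CPM in the mutants against 1445 to 1635 CPM in wild type. Of 20 endoderm and yolk sac genes, 4 rose in RepB-/- and 12 in RepB+/-, with sums of 1469 to 1687 CPM in the mutants against 1046 to 1100 CPM in wild type. The sums of 18 fibroblast and mesenchyme genes overlapped, at 27043 to 46527 CPM in the mutants against 34023 to 42778 CPM in wild type, with 5 genes higher and 1 lower in RepB-/- and 4 higher and 1 lower in RepB+/-, and no marker was at 0 in any library. Their part in the levels of the 9 genes was not tested, and fewer cells of a type cannot be told apart from less RNA per cell.

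The comparison of RepB-/- with RepB+/- was not used to choose the genes and could be tested. None of the 9 genes was called in either measure by edgeR's quasi-likelihood test at an adjusted p of 0.05, where 0.0858% of all genes were called for all reads, 0.302% of all genes and 0.266% of X-linked genes for the ratio of 129 to CAST. At an unadjusted p under 0.05 there was 1 of 9 for all reads (Sat1) and 0 of 9 for the ratio, DESeq2 gave 0 and 0, and a fit with a replicate block gave 2 of 9 (Atp6ap2 and Sat1) and 0. The share of all genes at that unadjusted limit is not given, so nothing is read from these counts. Sat1, at 54.9 and 47.4 CPM in RepB-/- and 44.3 and 40.3 CPM in RepB+/-, had a log2 difference in all reads of 0.27 (SE 0.12, 95% interval 0.01 to 0.52, edgeR adjusted p 0.711), higher in both RepB-/- libraries.

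The 95% intervals of these differences show how much the data allow. For all reads of Flna the log2 difference was -0.0028 (interval -0.37 to 0.37), and for Xiap -0.022 (-0.26 to 0.22). For Usp11 it was -0.031 (-0.26 to 0.20), for Usp9x 0.05 (-0.20 to 0.30) and for Clcn5 0.06 (-0.17 to 0.29). For Lamp2 it was 0.18 (-0.06 to 0.42), for G6pdx 0.17 (-0.09 to 0.42) and for Atp6ap2 0.19 (-0.05 to 0.44). Apart from Sat1, each all-read interval includes 0. For the ratio of 129 to CAST, Flna had the narrowest interval, -0.18 to 0.35 around 0.08, and Usp11 had -0.0030 (-0.40 to 0.39). Lamp2 stood at 0.07 (-0.30 to 0.44), Usp9x at 0.17 (-0.22 to 0.57), Xiap at 0.11 (-0.38 to 0.60) and Clcn5 at -0.08 (-0.60 to 0.45). The intervals of G6pdx (-0.42 to 0.93), Atp6ap2 (-0.43 to 1.04) and Sat1 (-0.95 to 2.73) were wider. Xist, in contrast, had a ratio of 129 to CAST that fell by 2.45 on the log2 scale in RepB-/- (SE 0.17, edgeR adjusted p 1.46e-40), with 28.2 and 43.9 CPM from CAST in RepB-/- against 6.05 and 6.49 CPM in RepB+/-.

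Per kilobase of exon, Flna was the most abundant of the 9 in wild-type ES cells at 229.7 ± 25.9 CPM per kb (SD, n = 2 for each gene). Usp11 (50.9 ± 0.15) and Lamp2 (50.4 ± 2.9) followed and did not differ beyond their spread. Clcn5 stood at 25.9 ± 0.14, Usp9x at 23.8 ± 0.37 and Sat1 at 22.5 ± 1.6, the last pair within their spread. Atp6ap2 had 15.9 ± 0.93, G6pdx 12.5 ± 1.0 and Xiap 9.97 ± 0.043 CPM per kb. The order differed in RepB-/- cells, where Lamp2 (79.0 ± 3.5) stood above Usp11 (57.8 ± 2.7), and Clcn5 (24.6 ± 3.0) was below Sat1 (40.0 ± 4.1), Usp9x (32.7 ± 2.6) and Atp6ap2 (30.3 ± 2.8) and within its spread of G6pdx (25.9 ± 1.0).

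In MEF, 129 reads made up under 3% of the allelic reads of Flna, Lamp2, G6pdx, Usp11, Usp9x and Clcn5 in both lines, and more of those of Xiap and Atp6ap2. Each line is 1 library, so no difference could be tested, and intervals are exact Clopper-Pearson 95% limits that cover counting error only. Where no 129 read was seen, the share allowed is given by a limit of 3 counts over the allelic reads. Flna had 79 of 16392 allelic reads from 129 in RepB MEF (0.482%, 0.382 to 0.600%) and 63 of 17266 in wild-type MEF (0.365%, 0.280 to 0.467%). Lamp2 had 6 of 735 in RepB (0.816%) and 1 of 679 in wild type (0.147%), and G6pdx 11 of 479 in RepB (2.30%) and 5 of 234 in wild type (2.14%). These shares are far below the mutant ES cells for the same genes. Usp11 had 0 of 369 in RepB, which allows a share of up to 0.813%, and 1 of 362 in wild type (0.276%). Usp9x had 1 of 286 in RepB (0.350%) and 0 of 206 in wild type, which allows up to 1.46%, and Clcn5 3 of 132 in RepB (2.27%) and 0 of 71 in wild type, which allows up to 4.23%. The highest shares belonged to Xiap, with 16 of 188 in RepB (8.51%, 4.94 to 13.5%) and 8 of 116 in wild type (6.90%, 3.02 to 13.1%), and to Atp6ap2, with 5 of 43 in RepB (11.6%, 3.89 to 25.1%) and 4 of 23 in wild type (17.4%, 4.95 to 38.8%). Sat1 had 4 allelic reads in RepB and 1 in wild type, all from CAST, and gives no share.

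For none of the 9 genes did the intervals of RepB and wild-type MEF lie apart, where 2.08% of 240 X-linked genes had them apart. Pooled over the 9 genes, the 129 share was 0.650% (0.539 to 0.776%) in RepB MEF and 0.433% (0.344 to 0.537%) in wild-type MEF, and without Flna 1.88% (1.36 to 2.53%) in RepB and 1.12% (0.677 to 1.75%) in wild type. The pooled intervals of the 9 genes lay just apart, with RepB the higher, and those without Flna overlapped. With 1 library a line this difference was not tested. Flna supplied most of the reads behind the pooled value. Atp6ap2 and Xiap, the genes with the highest 129 shares in wild-type MEF, were also first and among the next in wild-type ES cells, at 22.4 ± 7.7% and 13.4 ± 0.22% (SD, n = 2), with G6pdx at 14.4 ± 8.2%. The 129 share of Xist was 99.2% in RepB MEF and 99.7% in wild-type MEF.

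**Figure D4:**
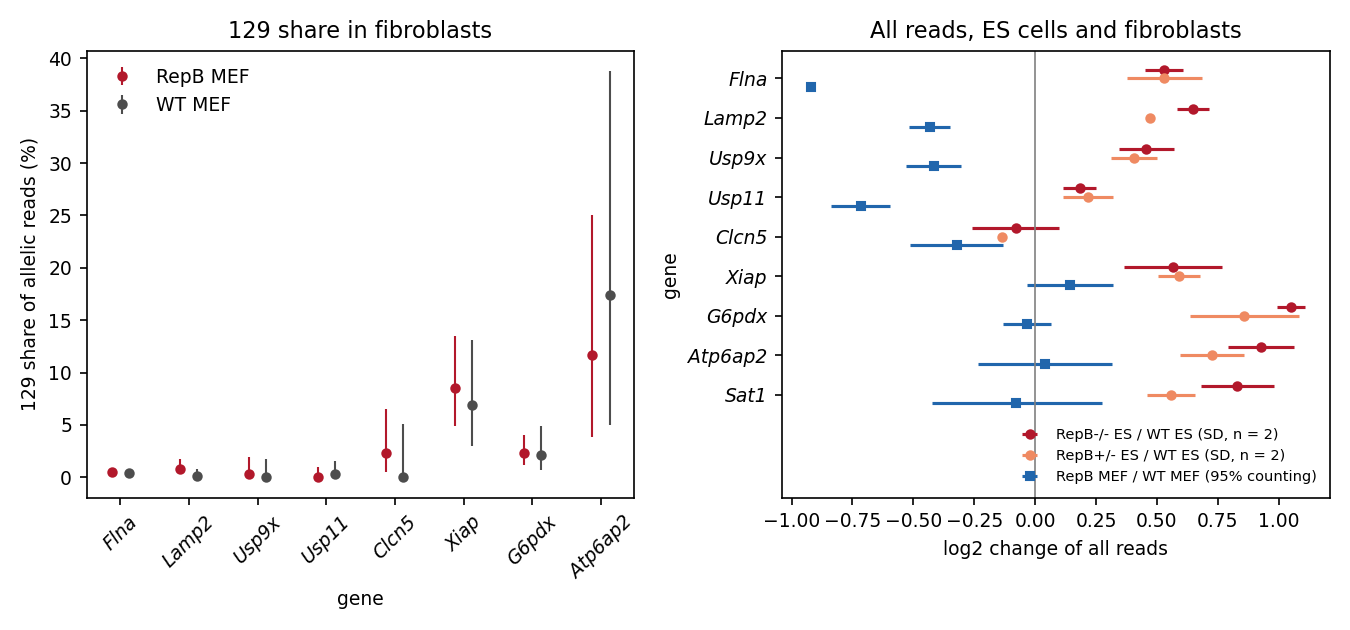
Left, 129 share (y axis, percent) of 8 genes in RepB and wild-type MEF with exact 95% counting intervals, Sat1 being left out for its few allelic reads. Right, log2 change of all reads (x axis) for each gene in RepB-/- and RepB+/- ES cells (SD, n = 2) and in RepB MEF (1 library each, 95% counting interval), each against its wild type. The MEF points run from -0.92 for Flna to 0.14 for Xiap.

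All reads in MEF did not show the ES pattern. Flna stood at 3241 CPM in RepB MEF and 6139 CPM in wild-type MEF, a log2 ratio of -0.92. Usp11 stood at 56.3 CPM in RepB MEF and 92.5 CPM in wild type (-0.72). Lamp2 stood at 132 CPM in RepB and 178 CPM in wild type (-0.43). These 3 genes had counting intervals below 0, as had Usp9x and Clcn5. Usp9x stood at 74.6 CPM in RepB and 99.5 CPM in wild type (-0.41), and Clcn5 at 27.1 CPM in RepB and 34.0 CPM in wild type (-0.32). Sat1 (-0.08), G6pdx (-0.03), Atp6ap2 (0.04) and Xiap (0.14) had counting intervals that include 0. At a 1.5-fold limit, Flna and Usp11 were lower, 2 of 9 where 13.6% of 11684 genes were, and 0 of 9 were higher where 10.9% were. With plain library sizes in place of TMM, the median of all genes moved to 0.16 and that of X-linked genes to 0.10. The median of the 9 genes was then -0.16, Usp11 (-0.56) no longer reached the limit, which left 1 of 9 lower where 9.93% of genes were, and G6pdx (0.13) and Sat1 (0.08) turned positive. With TMM, the median over the 9 genes was -0.32, beside -0.06 for 368 X-linked genes and 0.0017 for all genes. With 1 library a line, these ratios compare libraries and not genotypes.

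The genes also differed between cell types when all 8 libraries were scaled together. Wild-type ES cells had 0.255 times the wild-type MEF level of G6pdx and 0.289 times that of Flna. They had 1.33 times the level of Lamp2, 1.76 times that of Usp11, 1.87 times that of Xiap, 2.30 times that of Atp6ap2, 2.63 times that of Usp9x, 2.71 times that of Sat1 and 3.07 times that of Clcn5. The 9 genes were thus detected in both cell types at levels that were not constant.

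A list of 40 other X-linked housekeeping genes was tested beside them. In all reads, 22 of 40 rose in RepB-/- and 23 of 40 in RepB+/- against wild type, and none fell (edgeR adjusted p of 0.05, where 7.27% and 9.12% of all genes rose). Their median log2 changes were 0.44 in RepB-/- and 0.40 in RepB+/-, beside 0.36 and 0.37 over the 562 X-linked genes tested and 0.0087 and 0.019 over all genes. The share of X-linked genes called higher in all reads is not given, so the counts called are not read as particular to housekeeping genes. These counts depended on single libraries, with 8 of 40 in RepB-/- and 3 in RepB+/- without wild-type replicate 2, 11 and 8 without wild-type replicate 1, 12 in RepB-/- without its replicate 1 and 11 in RepB+/- without its replicate 1. Ebp, a sterol isomerase of cholesterol synthesis, rose by 1.02 on the log2 scale in RepB-/- (SE 0.16, edgeR adjusted p 0.000702) and 1.05 in RepB+/- (SE 0.16, edgeR adjusted p 0.000642). Ssr4, a subunit of the translocon-associated complex of the endoplasmic reticulum, rose by 0.68 in RepB-/- and 0.53 in RepB+/-. Emd, the nuclear envelope protein emerin, rose by 0.66 in RepB-/- and 0.55 in RepB+/-, and Cox7b, a cytochrome c oxidase subunit, by 0.66 in RepB-/- and 0.35 in RepB+/-. The ratio of 129 to CAST rose in 23 of the 32 genes with enough allelic reads in each mutant, where 62.2% and 59.6% of X-linked genes did so. Examples in RepB-/- are Msn (moesin, log2 change 3.53), Idh3g (a subunit of isocitrate dehydrogenase, 3.24) and Huwe1 (a ubiquitin ligase, 3.02). For comparison, the 9 genes had fitted log2 ratios in RepB-/- of 2.22 (Atp6ap2) to 4.44 (Lamp2).

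Autosomal genes of the same pathways were counted on 7 lists. Of 79 tested, 3 rose and 2 fell in RepB-/- and 4 rose and 2 fell in RepB+/-, where 7.27% and 5.49% of all genes rose and fell in RepB-/- and 9.12% and 6.84% in RepB+/-, so that these counts are no more than the background. None of the 20 lysosome and V-ATPase genes and none of the 7 pentose phosphate genes was called in either mutant. Mtap, of the methionine salvage that follows polyamine synthesis, rose by 0.64 on the log2 scale in RepB-/- (edgeR adjusted p 0.000799) and 0.50 in RepB+/- (edgeR adjusted p 0.00501), and Odc1, ornithine decarboxylase, rose by 0.50 in RepB+/-. The deubiquitinase Usp28 rose by 0.41 in RepB-/- and 0.65 in RepB+/-, Usp1 rose by 0.36 in RepB+/-, Usp19 fell by 0.42 in RepB-/- and Usp22 fell by 0.37 in RepB+/-. Htra2, a mitochondrial protease of apoptosis, rose by 0.34 in RepB-/-, and Clcn6, a late endosomal exchanger, fell by 0.42 in RepB-/-. Leaving out a library of either group compared left 1 rise and no fall in RepB-/-. In RepB+/-, 1 or 2 genes rose when wild-type replicate 1 or 2, or RepB+/- replicate 1, was left out.

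Autosomal relatives of the 9 genes give the levels of similar products. Flnc, Lamp1, H6pd, Clcn3, Birc2 and Sat2 were not called in either mutant. Lamp1, the other major lysosomal membrane protein, had log2 changes of 0.01 in RepB-/- and -0.030 in RepB+/-, and H6pd, the glucose-6-phosphate dehydrogenase of the endoplasmic reticulum, 0.21 in RepB-/- and 0.05 in RepB+/-.

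The X-linked genes whose 129 shares over the 6 ES libraries were nearest to the median of the 9 were Jade3, Gpc3, Brwd3, Rhox6 and Med12, among 131 others averaging at least 200 allelic reads. Their mean absolute difference from that median was 1.76, 1.77, 1.84, 1.97 and 2.02 points, beside a median of 7.38 points over the 131. Among the 9 genes themselves, Usp9x (1.39), Flna (1.48) and Lamp2 (1.61) were closest to their common median, and Clcn5 (13.2) and Atp6ap2 (12.4) furthest, below and above it. The farthest of the 131 were Ngfrap1 (68.2 points), Rpl39 (65.9), Rps4x (62.5), Rbbp7 (49.9) and Slc25a5 (33.3), which had mostly 129 reads in every genotype. Near-identical copies elsewhere make the values of Rpl39 and Rps4x uncertain.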

How the data were processed

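Poly(A) RNA of 8 libraries was analysed. The authors deposited 3 tables of whole-number counts per gene and library, for all reads, 129 reads and CAST reads, in featureCounts layout on mm9, per the file headers; the counts are not normalized. The allele columns headed mus and cas were read as 129 and CAST, after the strains that the labels name. Per the submitters' processing notes, Novoalign, TopHat, SAMtools, bedtools, cutadapt, featureCounts, HOMER and Juicer were used in the series. Strand setting and versions are not given in the sources used here, so overlapping and antisense genes cannot be told apart, and paralogous reads may be split. A strain variant can lower mapping of an allele that differs from the reference, so chromosome 13 is given beside the X.

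One edgeR model (version 4.0.16, R 4.3.3) held the 6 ES libraries (filterByExpr with minimum count 10 and total 15, TMM, quasi-likelihood F-test, Benjamini-Hochberg adjusted p of 0.05 over 15149 genes). The ratio of 129 to CAST was fitted with a term per library and one for the interaction of allele and genotype, over the 11597 genes averaging at least 20 allelic reads, with library sizes from all reads. The biological coefficients of variation were 9.49% and 10.4%. Levels are TMM-scaled CPM, with 0.05 added before log2. MEF ratios are log2 of scaled CPM with a prior count of 2, for genes averaging at least 1 CPM. Intervals for shares are exact Clopper-Pearson 95% limits and, like the limit of 3 counts used for a count of 0, cover counting error only, since no molecular identifiers are stated. Replicates differed by more than sampling noise (chi-square per degree of freedom 7.23 to 16.0). The fits were tested on simulated data.

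The 9 genes, the lists and the tests were chosen with earlier results of these data known. Named besides the 9 genes and Xist are from each list the called genes of lowest adjusted p, at most 4 (2 of lowest p where none was called, not all printed), paralogs of the 9 (1 is not reported here), and the 5 nearest and 5 farthest X-linked genes in 129 share. Promoters came from RefSeq (GRCm38.p6). Alternatives were DESeq2 1.42.0 and its size factors, no filter on low counts, other minimums, pseudocounts and scalings, fitting only the genotypes compared, a replicate block and leaving out each library.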

Additional observations from a re-analysis of the deposited data

Results flagged for a closer look

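Of the 9 genes, 6 had all reads higher in every mutant ES library than in wild type but lower in RepB MEF than in wild-type MEF, and the difference between ES cells and MEF was not tested. The log2 ratio of RepB to wild-type MEF was -0.92 for Flna, -0.72 for Usp11, -0.43 for Lamp2, -0.41 for Usp9x, -0.077 for Sat1 and -0.033 for G6pdx, the last 2 with counting intervals that include 0. With plain library sizes Sat1 and G6pdx stood at 0.08 and 0.13, which leaves 4 genes lower in RepB MEF. The 129 share was higher in every mutant ES library but lower in RepB MEF for Atp6ap2, by -5.76 points at 43 and 23 allelic reads, and for Usp11, by -0.28 points, where the wild-type value is 1 read. The intervals of both overlap between the MEF lines, and these differences too were not tested.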

How the results depend on the processing

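The direction of the share, allele and all-read medians over the 9 genes against wild type was the same under every alternative run, and none of the 9 genes was called between RepB-/- and RepB+/- under any (adjusted p 0.300 to 1 for all reads and 1 for the ratio). For the ratio, Sat1 had too few allelic reads to be tested at a minimum of 50 or without replicate 1 of either mutant. Small differences between the mutants changed sign, and the cause was not tested. In all reads, Flna stood at 0.0081 without the filter on low counts and 9.6e-05 with a replicate block, and leaving out 1 library at a time gave -0.10 to 0.12 for Flna, -0.099 to 0.047 for Usp11, -0.034 to 0.13 for Usp9x, -0.072 to 0.19 for Clcn5 and -0.17 to 0.12 for Xiap. In the ratio of 129 to CAST, Clcn5 stood at 0.0025 in DESeq2, and leaving out libraries gave -0.30 to 0.37 for Clcn5, -0.040 to 0.21 for Flna, -0.027 to 0.020 for Usp11 and -0.035 to 0.35 for Xiap.

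Leaving out 1 library at a time, the median 129 share stood 35.3 to 38.3 points above wild type in RepB-/- and 32.8 to 35.8 in RepB+/-. The median log2 change of 129 reads was 2.64 to 3.18 in RepB-/- and 2.30 to 2.76 in RepB+/-, and that of CAST reads -0.24 to -0.14 in RepB-/- and -0.21 to -0.073 in RepB+/-. The median change of all reads in RepB+/- was 0.47 to 0.53 in CPM and 0.46 to 0.52 in the fit, and the fitted ratio of 129 to CAST 2.72 to 3.63 in RepB-/- and 2.54 to 3.70 in RepB+/-. That ratio was 3.25 in RepB-/- and 3.14 in RepB+/- with at least 50 allelic reads, and 3.26 in RepB-/- and 3.14 in RepB+/- with only the genotypes compared. Both settings drop Sat1, so these are medians over the other genes. Leaving out replicate 1 of RepB-/- or of RepB+/- drops Sat1 too. Usp9x, the median gene of the main fit in RepB-/- at 2.72, stood at 2.72 in both settings. With plain library sizes the median of CAST reads was -0.13 in each mutant and that of all reads in RepB+/- 0.59, and with DESeq2 or its size factors that all-read median was 0.51 in the fit.

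The other X-linked housekeeping genes called higher numbered 8 to 28 of 40 in RepB-/- and 3 to 21 in RepB+/- when single libraries were left out. For the autosomal partner genes these numbers were 1 to 3 higher and 0 to 3 lower in RepB-/-, and 1 to 5 higher and 0 to 4 lower in RepB+/-. Lower partner genes in RepB-/- numbered 4 in DESeq2 and 4 with the replicate block, and in RepB+/- 4 without the filter, 7 with the block and 1 with only the genotypes compared. Deviations of same-numbered replicates had correlations of 0.176, 0.0689 and 0.0991 between genotypes. These weak values cannot show whether same-numbered libraries share a batch. With the block 0 of 9 genes were called between the mutants. In MEF, plain library sizes moved the median ratio of the 9 genes to -0.16 and that of all genes to 0.16. Depth limits the allelic values of Sat1 throughout and of Atp6ap2 and G6pdx in RepB+/- replicate 2 and in MEF.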
